A study of Mus musculus with 36 samples.

Results

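The smooth muscle contractile genes described here are 34 genes of the gut muscle coat, out of 19946 genes that the array measured with a probe set of their own. Each gene was read from the probe set annotated to it alone, and where there was more than 1 the probe set with the highest mean over the arrays was taken. All 34 genes were measured, 33 of them by 1 such probe set and Kcnma1 by 2. They comprise 10 genes of the actin filament, 3 of myosin and its activation, 12 of intermediate filaments, dense bodies and membrane attachment, 2 small heat shock proteins, 5 of excitation and calcium handling, the transcription coactivator Myocd, and Smpx, which is set against the rest.

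The samples were distal colons of 36 mice, 1 Affymetrix array per animal. Every animal is labelled with 5% DSS, dextran sulfate sodium, which damages the lining of the colon, and this holds for the Control group too. There were 9 Control mice and 7 mice dosed with scrambled siRNA. The other 3 groups received siRNA directed at Tnf, the gene of tumour necrosis factor, which was plain in 6 mice (siTNF), built with O-methyl nucleotides in 6 (siTNF-OMe) and built with nucleotides of the O-methyl-propanediol kind in 8 (siTNF-OMe-P). Dosing was intrarectal. The design text speaks of DSS-treated mice after siRNA dosing and does not mention the Control group, so whether the Control mice had DSS is not settled, and a difference from Control cannot be assigned to the siRNA dose or to colitis. Labelled myeloperoxidase activity, a measure of neutrophils, was 0.009 to 0.088 U/mg in Control (median 0.038) and 0.031 to 1.35 in the siRNA-dosed groups, with group medians of 0.206 to 0.514. The sources used here do not say what the Control mice were dosed with, nor do they give strain, age, sex or siRNA dose, and the labels do not say whether arrays came from separate cages or days.

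Smooth muscle of the colon wall contracts when calcium entry and muscarinic signalling activate myosin light chain kinase, which phosphorylates the regulatory light chain of myosin so that myosin pulls on actin. Actin filaments are anchored in dense bodies and at the cell membrane, and intermediate filaments of desmin and synemin link these anchor points across the cell. Many of these genes are driven by serum response factor, which binds a motif called the CArG box, and by its coactivator myocardin, the product of Myocd. Smpx encodes a small X-linked muscle protein that is best known from skeletal muscle and heart.

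The CArG box was searched in RefSeq promoter windows of build GRCm38.p6, which run from 250 bases before to 50 bases after a transcript start, because the members as a group are known for this motif. The motif reads the same way on both strands. Of the 34 genes 30 had a window, and 3 of those 30 (10%) held a CArG box, against 488 of 27025 genes overall (1.81%). The 3 stretches are shown 5′ to 3′ on the gene's strand with the CArG box in capitals:
Dmd, chrX:82948752-82948801, plus strand: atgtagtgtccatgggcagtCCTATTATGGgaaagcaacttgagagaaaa
Ldb3, chr14:34588687-34588736, minus strand: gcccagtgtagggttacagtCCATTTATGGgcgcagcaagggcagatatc
Myl9, chr2:156775283-156775332, plus strand: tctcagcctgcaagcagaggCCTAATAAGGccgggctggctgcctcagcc
The box began 98 bases before the transcript start in Dmd, 161 bases before it in Myl9, and 35 and 109 bases before 2 starts of Ldb3. Actg2, Tagln, Myh11 and Myocd had no window in the table used. A match in such a window is a description of its letters and does not show binding.

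Tnf, the gene the siRNAs target, read 7.60, 7.91 and 8.67 in the lowest, median and highest Control array, 8.36, 8.67 and 9.47 in scrambled and 8.41 to 9.42 over the 3 groups with siRNA against it. Against Control it was higher in all 4 siRNA groups, by 0.74 to 1.15 log2 (limma adjusted p of 2.12e-06 to 2.54e-04). Its difference from scrambled was 0.19 ± 0.16 log2 in siTNF, -0.12 ± 0.16 in siTNF-OMe and -0.23 ± 0.15 in siTNF-OMe-P, and none passed (limma adjusted p = 1.00), so Tnf mRNA does not tell these labels apart. The arrays did not share one spread, and this touches the results. The SD of all 28853 log2 values within an array ran from 1.55 to 1.89. Below an SD of 1.7 lay 8 arrays, which were Control replicates 4, 5, 6 and 8, scrambled replicate 5, siTNF replicate 3 and siTNF-OMe-P replicates 2 and 8. Array medians lay between 7.98 and 8.25, and no pair of arrays correlated below 0.852. The counts and medians, and the members whose call changed, are also given without these narrow arrays.

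Nearly all of the contractile genes were higher in the siRNA-dosed colons than in Control, and Smpx alone of the 34 was lower. A gene was counted as higher or lower when its limma adjusted p was under 0.05. In scrambled over Control 27 of the 34 genes were higher and 1 was lower, where 7.27% of all 28853 probe sets were higher and 4.45% lower. In siTNF over Control 28 were higher and 1 lower, beside 9.09% and 4.71% of all probe sets. In siTNF-OMe over Control 29 were higher and 1 lower, beside 9.01% and 5.81%. In siTNF-OMe-P over Control 29 were again higher and 1 lower, beside 9.35% and 6.58%. The 4 comparisons share the 9 Control arrays and are not independent of one another.

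A stricter count took genes whose arrays did not overlap at all between the groups. In scrambled 5 of the 34 genes lay wholly above Control, beside 1.82% of all probe sets, in siTNF 7 did, beside 2.29%, in siTNF-OMe 18, beside 4.56%, and in siTNF-OMe-P 7, beside 2.5%. Cnn1, Csrp1 and Hspb7 were wholly above Control in all 4 groups. For all 4 together no share of all probe sets was taken, but it cannot exceed the 1.82% in scrambled. Smpx was wholly below Control in all 4 groups, beside 0.863%, 0.957%, 1.8% and 1.01% of all probe sets.

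Of the 34 genes 27 were higher in all 4 comparisons. The share of all probe sets higher in all 4 was not taken, but it cannot exceed the 7.27% that were higher in scrambled. Dmd was higher in 3 of the comparisons and Sgca in 2, whereas Ldb3, Itga8, Casq2 and Chrm3 passed in none. The median difference of the 34 genes was 0.46 log2 in scrambled, 0.47 in siTNF, 0.51 in siTNF-OMe and 0.53 in siTNF-OMe-P, where the medians of all probe sets were -0.03, -0.04, -0.05 and -0.03. Since 22 of the 34 genes had a mean signal of at least 10, the share of higher calls among all probe sets at that level also serves as a background, and it was 18.5%, 21.1%, 20.3% and 20.1% in the order of the groups. In bulk tissue fewer cells of a type and less RNA per cell cannot be told apart.

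**Figure D1:**
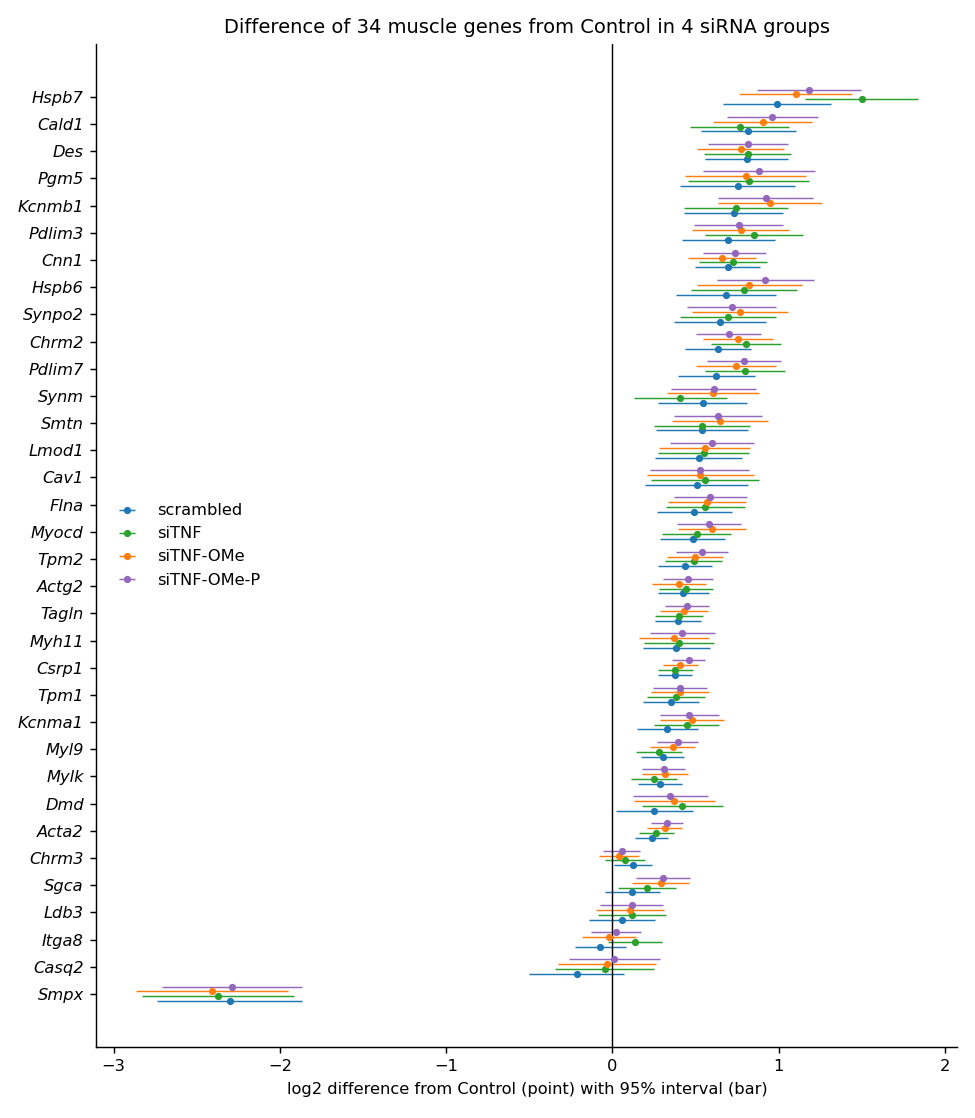
Log2 difference from Control (x axis) of each of the 34 muscle genes (y axis) in the 4 siRNA groups, with points for the estimate of the linear model and bars for its 95% interval. Smpx lies at -2.41 to -2.29, Casq2, Itga8, Ldb3 and Chrm3 lie near 0, and the other genes lie to the right of 0, with Hspb7 farthest at 0.99 to 1.5.

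The size of the rise depended on the narrow arrays. Without the 8 arrays the counts of higher genes were 23, 25, 27 and 28 in the same order of groups, and the share of all probe sets that were higher became 28%, 8.62%, 29.9% and 26.1%. The median difference of the 34 genes without them was 0.23, 0.32, 0.32 and 0.38 log2. Of the 28 genes called in scrambled over Control 23 were called again, and Myh11, Synm, Cav1, Hspb6 and Kcnma1 were not. In siTNF over Control Myh11, Synm and Dmd were not called again, in siTNF-OMe Myh11, Dmd and Cav1, and in siTNF-OMe-P Dmd. With arrays weighted by quality the medians were 0.26, 0.30, 0.31 and 0.36, with 27, 24, 28 and 30 of the 34 genes higher beside 31.5%, 11%, 24.4% and 25% of all probe sets. With the array SD as a covariate the medians were 0.41, 0.40, 0.43 and 0.49, with 28, 29, 29 and 29 higher beside 12.9%, 13.2%, 14.3% and 16.5%.

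**Figure D2:**
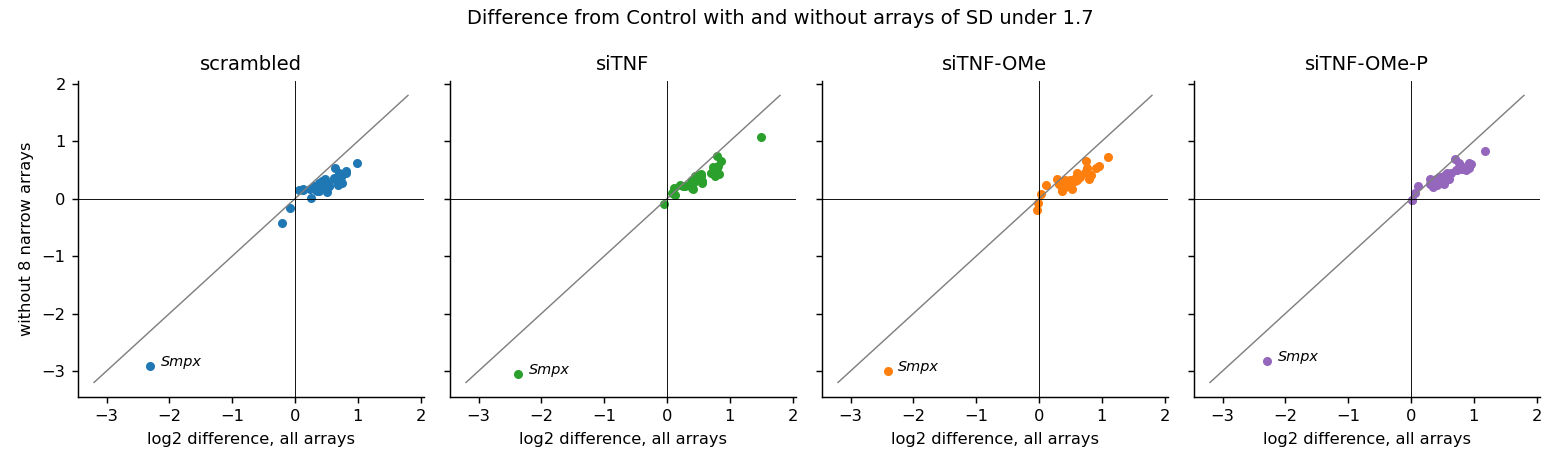
Log2 difference from Control of the 34 genes with all 36 arrays (x axis) against the difference without the 8 arrays of SD under 1.7 (y axis), 1 panel per siRNA group, with a grey line where both are equal. Most genes lie below the line and above 0, and Smpx lies below the line at -2.82 to -3.05 on the y axis.

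Hybridization was done in 2 batches and amplification in 3, and every group had at least 1 array in each, but amplification batch 1 held only 1 scrambled and 1 siTNF-OMe array. Within hybridization batch 1 the median differences of the 34 genes from Control were 0.39, 0.38, 0.40 and 0.46 log2, with 31 or 32 of the 34 above 0. Within batch 2 they were 0.49, 0.52, 0.58 and 0.52, again with 31 or 32 above 0. The counts of called genes were smaller within a batch, at 16, 14, 19 and 22 in batch 1 and 12, 13, 19 and 23 in batch 2. The share of all probe sets that were higher was smaller too, at 1.52%, 1.15%, 1.89% and 2.18% in batch 1 and 2.73%, 4.18%, 5.48% and 5.41% in batch 2. The share of all probe sets that were lower was 1.58% to 2.71% in batch 1 and 0.905% to 2.27% in batch 2. Within amplification batch 3 Smpx alone passed in each of the 4 comparisons, as lower, beside 0.052% to 0.246% of all probe sets. The median differences of the 34 genes there were 0.49, 0.49, 0.46 and 0.45, and 0.114% to 0.454% of all probe sets were higher.

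All 10 genes of the actin filament were higher in every siRNA group. Cald1, which encodes caldesmon, an actin-binding brake on myosin, had a Control signal of 10.49 in the lowest, 11.50 in the median and 11.99 in the highest array. Its scrambled arrays ran from 11.82 through 12.14 to 12.62, and its siTNF-OMe-P arrays from 12.22 through 12.27 to 12.56. The lowest siTNF-OMe-P array lay above the highest Control array, whereas scrambled overlapped Control. The difference was 0.82 ± 0.14 log2 (SE, limma adjusted p = 7.26e-05) in scrambled and 0.96 ± 0.13 (limma adjusted p = 2.29e-06) in siTNF-OMe-P.

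Cnn1 encodes calponin, which binds actin and slows the myosin motor, and lies on chromosome 9 from 22099221 to 22109221. Its 9 Control arrays read 11.62 at the lowest, 12.39 at the median and 12.69 at the highest, and the 27 siRNA-dosed arrays read 12.83, 13.01 and 13.20. No siRNA-dosed array fell into the range of the Control arrays. The difference was 0.69 ± 0.10 log2 in scrambled (limma adjusted p = 3.73e-06), 0.73 ± 0.10 in siTNF, 0.66 ± 0.10 in siTNF-OMe and 0.74 ± 0.09 in siTNF-OMe-P.

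The actins themselves had smaller differences. Acta2, the alpha actin of smooth muscle, read 12.76, 13.08 and 13.32 in the lowest, median and highest Control array and 13.19, 13.34 and 13.51 over the 27 siRNA-dosed arrays. Its ranges overlapped in all 4 comparisons, and its difference ran from 0.24 ± 0.05 in scrambled to 0.33 ± 0.05 in siTNF-OMe-P. Actg2, the gamma actin that prevails in gut muscle, differed by 0.40 to 0.46 log2. The actin genes are near-identical copies in their coding sequence, so how far the 2 probe sets read each other's transcripts is uncertain.

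The remaining actin filament genes lay between these. Tagln (transgelin) was higher by 0.39 to 0.45 log2, and all 7 scrambled arrays, at 12.96 to 13.15, lay above the 9 Control arrays, at 12.24 to 12.95. Tpm1 and Tpm2, the tropomyosins that run along the filament, were higher by 0.35 to 0.41 and by 0.44 to 0.54. Lmod1, which starts new filaments, was higher by 0.52 to 0.60, Smtn (smoothelin) by 0.54 to 0.65, and the crosslinker Flna by 0.49 to 0.59. Without the narrow arrays all 10 actin filament genes were again higher in the 4 groups, with smaller values such as 0.39 to 0.60 for Cald1, 0.41 to 0.55 for Cnn1, 0.27 to 0.44 for Lmod1, 0.23 to 0.44 for Smtn and 0.20 to 0.34 for Flna.

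The 3 myosin genes were higher in all 4 groups, with median differences of 0.28 to 0.39 log2 beside 0.47 to 0.56 for the actin filament genes. Myh11, the smooth muscle myosin heavy chain, read 11.50, 12.19 and 12.68 in the lowest, median and highest Control array. Over the siRNA-dosed arrays it read 12.32, 12.63 and 12.72. The highest Control array thus lay within the siRNA-dosed range, and the difference was 0.39 ± 0.10 in scrambled (limma adjusted p = 0.00669). Without the narrow arrays it was 0.14 ± 0.07 in scrambled (limma adjusted p = 0.111) and passed only in siTNF-OMe-P. Myl9, the regulatory light chain whose promoter stretch is printed above, was higher by 0.28 to 0.39, and Mylk, the kinase that phosphorylates it, by 0.25 to 0.32. On quantile-normalized values Mylk did not pass in scrambled or siTNF.

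Of the 12 genes of intermediate filaments, dense bodies and membrane attachment, 8 were higher in scrambled, 9 in siTNF and 10 each in siTNF-OMe and siTNF-OMe-P. Des encodes desmin, the main intermediate filament of muscle, on chromosome 1 from 75360292 to 75368579. Its Control arrays read 11.07 at the lowest, 12.07 at the median and 12.57 at the highest. The scrambled arrays read 12.56, 12.85 and 12.94, and those of the other 3 groups lay between 12.59 and 12.96. Only the lowest scrambled array reached into the Control range. The difference was 0.81 ± 0.12 log2 in scrambled (limma adjusted p = 1.4e-05) and 0.77 to 0.82 in the TNF siRNA groups, and 0.45 to 0.56 without the narrow arrays.

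Genes that tie actin to adhesion sites rose alongside. Pgm5, an adhesion protein of the dense plaque, was higher by 0.75 to 0.88 log2. Synpo2, an actin bundler, was higher by 0.65 to 0.77, and the PDZ and LIM domain proteins Pdlim3 and Pdlim7 by 0.70 to 0.85 and by 0.63 to 0.80. Synm (synemin) was higher by 0.41 to 0.61 and Cav1, the coat protein of caveolae, by 0.51 to 0.56. Synm did not pass without the narrow arrays in scrambled (0.22) and siTNF (0.17), nor in siTNF with median centring or quantile normalization. Cav1 did not pass without them in scrambled (0.12) and siTNF-OMe (0.17), nor in scrambled with median centring. Without them Pgm5 was higher by 0.27 to 0.50, Synpo2 by 0.32 to 0.51, Pdlim3 by 0.41 to 0.65 and Pdlim7 by 0.35 to 0.56. Csrp1, a LIM protein of the actin cytoskeleton, had a smaller difference with little spread: its Control arrays read 12.46, 12.88 and 13.07 and the siRNA-dosed arrays 13.16, 13.25 and 13.40. No siRNA-dosed array lay within its Control range, and it was higher by 0.38 ± 0.05 in scrambled (limma adjusted p = 1.85e-06) and 0.46 ± 0.05 in siTNF-OMe-P.

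Dystrophin, its partner Sgca, Ldb3 and the integrin passed in fewer comparisons. Dmd (dystrophin), which carries a CArG box in the window above, differed by 0.25 ± 0.11 in scrambled (limma adjusted p = 0.185) and was higher by 0.42, 0.37 and 0.35 in the other groups. Those 3 calls were absent without the narrow arrays, where its differences in these groups were 0.27, 0.14 and 0.20, and with median centring the siTNF-OMe and siTNF-OMe-P calls were lost too. Sgca, the alpha sarcoglycan that sits with dystrophin in the membrane, was higher in siTNF-OMe by 0.29 ± 0.08 and in siTNF-OMe-P by 0.30 ± 0.08. It also passed in siTNF with median centring, quantile normalization or the array SD as a covariate. Ldb3, a PDZ and LIM domain protein best known from the Z-disc, differed by 0.06 to 0.12 and passed in none with all arrays. Without the narrow arrays Ldb3 passed in siTNF-OMe. Itga8, an integrin chain of smooth muscle, passed in none with all arrays either, at -0.07 to 0.13.

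Both small heat shock genes were higher in all 4 groups, and Hspb7 had the largest rise of the 34 genes in each. Hspb7, on chromosome 4 from 141420779 to 141425310, encodes a small heat shock protein abundant in heart and muscle. Its Control arrays read 8.10 at the lowest, 9.01 at the median and 9.30 at the highest. The scrambled arrays read 9.41, 9.86 and 10.38, and the siTNF arrays 9.87, 10.26 and 11.04. All 27 siRNA-dosed arrays lay above all 9 Control arrays.

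The Hspb7 difference was 0.99 ± 0.16 log2 in scrambled (1.98-fold, limma adjusted p = 3.39e-05) and 1.5 ± 0.17 in siTNF (2.83-fold, limma adjusted p = 7.73e-08). It was 1.10 ± 0.17 in siTNF-OMe and 1.18 ± 0.15 in siTNF-OMe-P. Without the narrow arrays the 4 differences were 0.62, 1.08, 0.73 and 0.83. Hspb6, which encodes HSP20, a regulator of smooth muscle relaxation, was higher by 0.69 to 0.92 log2, and in scrambled over Control it did not pass without the narrow arrays (0.23).

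Among excitation and calcium genes 3 of 5 were higher in every siRNA group. Chrm2, the M2 receptor for acetylcholine, read 10.01, 10.53 and 10.84 in the lowest, median and highest Control array and 10.99, 11.23 and 11.58 in siTNF. These groups did not overlap, and of the 4 siRNA groups only siTNF-OMe-P reached into the Control range. The difference was 0.64 ± 0.10 in scrambled (limma adjusted p = 2e-05), 0.80 ± 0.10 in siTNF, 0.75 ± 0.10 in siTNF-OMe and 0.70 ± 0.09 in siTNF-OMe-P. Chrm3, the M3 receptor that triggers contraction, was one of the dimmest probe sets of the list and differed by 0.04 to 0.12, with 7.08 as the median in Control and 7.15 over the siRNA-dosed arrays. Without the narrow arrays Chrm3 passed in scrambled at 0.16.

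The subunits of the large-conductance potassium channel, which limits contraction, were both higher. Kcnmb1, the beta subunit of smooth muscle, read 8.23, 9.11 and 9.51 in Control and 9.29, 9.87 and 10.14 over the siRNA-dosed arrays. It was higher by 0.73 ± 0.15 in scrambled and by 0.95 ± 0.15 in siTNF-OMe, and only in the siTNF-OMe and the siTNF-OMe-P groups did no array reach into the Control range. Kcnma1, the pore subunit, was higher by 0.33 to 0.48. Without the narrow arrays Kcnmb1 was higher by 0.38 to 0.62, and Kcnma1 did not pass in scrambled (0.15) and was higher by 0.28 to 0.32 elsewhere. Casq2, a calcium store protein, read 8.56, 9.00 and 9.38 in Control and 8.34, 9.03 and 9.56 over the siRNA-dosed arrays, a full overlap. Its difference was -0.21 ± 0.14 in scrambled (limma adjusted p = 0.44), and without the narrow arrays it was -0.41 ± 0.13 there and passed as lower (limma adjusted p = 0.0116).

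Myocd, the coactivator that drives the contractile program, was higher in all 4 groups. Its Control arrays read 8.14 at the lowest, 8.28 at the median and 8.69 at the highest, and the siRNA-dosed arrays 8.58, 8.94 and 9.29. Only siTNF-OMe lay wholly above Control. The difference ran from 0.48 ± 0.10 in scrambled (limma adjusted p = 5.62e-04) to 0.60 ± 0.10 in siTNF-OMe (limma adjusted p = 4.17e-05).

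**Figure D3:**
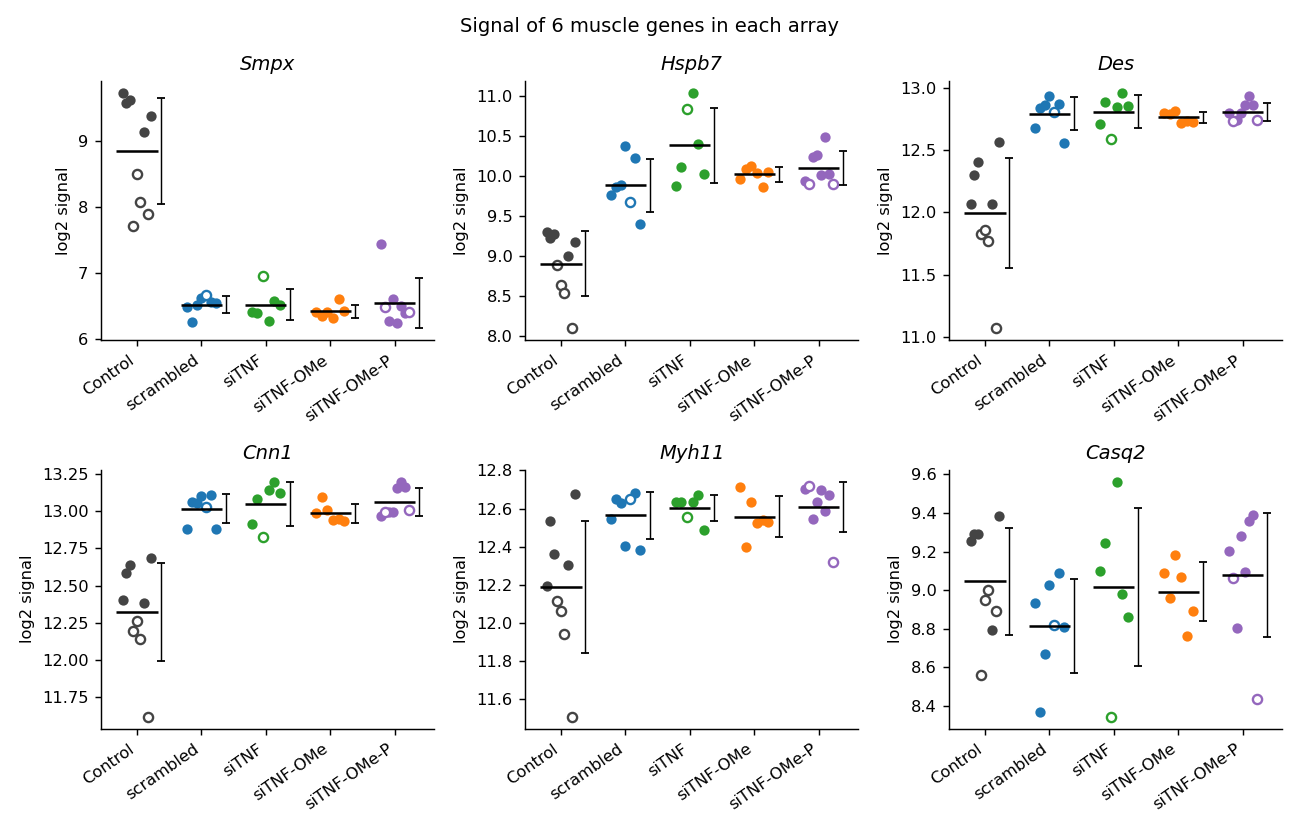
Log2 signal (y axis) of Smpx, Hspb7, Des, Cnn1, Myh11 and Casq2 in each array by group (x axis), with a horizontal bar for the group mean, a vertical bar for 1 SD on either side and open circles for arrays of SD under 1.7. Smpx is the gene that is high in Control, at 7.70 to 9.72 against 6.24 to 7.43, while Hspb7 and Cnn1 lie above Control in every siRNA-dosed array and Casq2 overlaps in all groups.

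Smpx, on chromosome X from 157698973 to 157752591, went the other way. Its signal in Control replicates 1 to 9 was 9.72, 9.56, 9.61, 7.70, 8.50, 8.08, 9.13, 7.88 and 9.37. The 7 scrambled arrays read from 6.25 to 6.66, the 6 siTNF arrays from 6.26 to 6.96, the 6 siTNF-OMe arrays from 6.31 to 6.60 and the 8 siTNF-OMe-P arrays from 6.24 to 7.43. All 27 siRNA-dosed arrays lay below the lowest Control array, and the 4 lowest Control arrays, replicates 4, 5, 6 and 8, were the 4 narrow ones.

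In scrambled Smpx fell by 2.30 ± 0.21 log2, a 4.94-fold difference (limma adjusted p = 3.12e-09). In siTNF it fell by 2.37 ± 0.22 (5.18-fold, limma adjusted p = 4.21e-09), in siTNF-OMe it fell by 2.41 ± 0.22 (5.32-fold, limma adjusted p = 1.74e-09) and in siTNF-OMe-P it fell by 2.29 ± 0.21 (4.89-fold, limma adjusted p = 9.58e-10). Its difference was the 4th lowest of all 28853 probe sets in siTNF and the 3rd lowest in each of the other comparisons with Control. Without the narrow arrays it grew to -2.92, -3.05, -2.99 and -2.82. No detection calls were used here, so whether the siRNA-dosed signal was above background is not known and the true difference may be larger.

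The change of Smpx was tested against that of each other gene in the same arrays. In each of the 4 comparisons with Control it lay below that of all 33 other members. The gap, as Smpx minus the other gene, ran from -2.09 log2 for Casq2 to -3.29 for Hspb7 in scrambled and reached -3.87 for Hspb7 in siTNF. The same held for 28848 of all 28852 other probe sets in scrambled (100%), 28847 in siTNF (100%), 28845 in siTNF-OMe (100%) and 28842 in siTNF-OMe-P (100%), so the count describes Smpx and not the 33. Among the 6 comparisons between siRNA groups Smpx differed in its change from 0 of the 33, where the background was 0%.

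Within groups Smpx did not run against most of the other genes. Residuals of the 36 arrays were taken after group and batch terms. Among the members Smpx had its highest correlations there with Hspb6 (Pearson r = 0.69), Cald1 (0.66), Pgm5 (0.66) and Des (0.65). Its r was below 0 with Sgca (-0.27), Ldb3 (-0.21) and Chrm3 (-0.10). The SD of Smpx was 0.80 within Control and 0.10 to 0.38 within the siRNA groups, and r within the siRNA groups alone was not taken. The 5 probe sets of highest r with Smpx out of 21796 were those of Psmc1 (0.879), Ugt2b35 (0.855), Rab5if (0.847), Eny2 (0.845) and Pdlim5 (0.843). All of these residuals share the arrays and their spread: the 5 had r of 0.80 to 0.87 with the array SD, and Smpx 0.681. Of the 5 genes Ugt2b35 was lower than Control in all 4 groups, by 1.27 to 1.34 log2, whereas Psmc1, Rab5if and Eny2 passed in none and Pdlim5 was higher in siTNF alone (0.32).

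**Figure D4:**
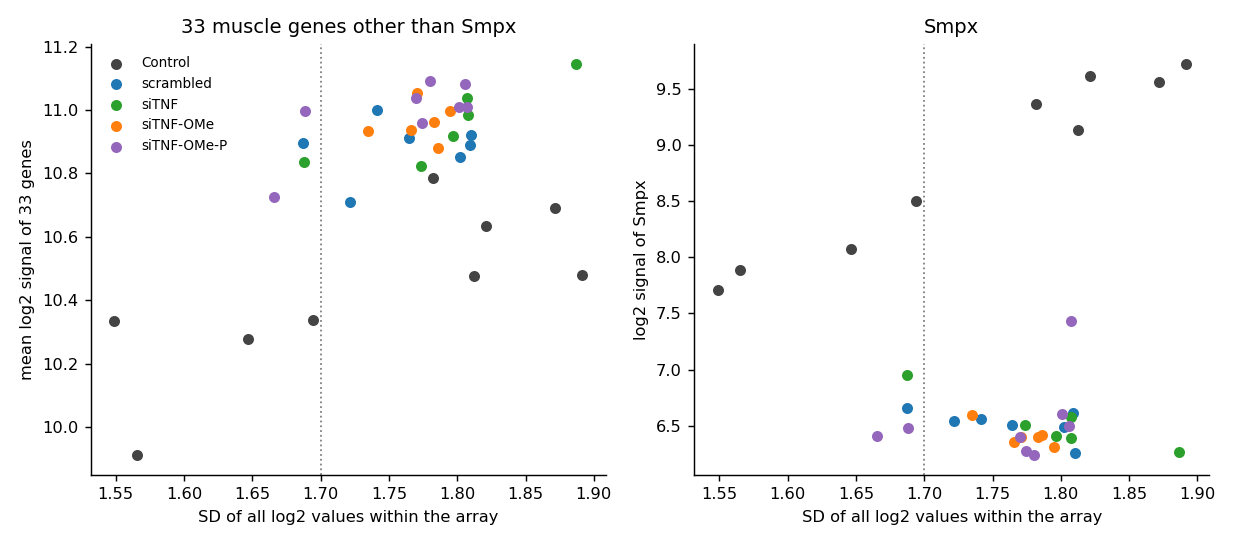
Mean log2 signal of the 33 genes other than Smpx (left) and log2 signal of Smpx (right) against the SD of all log2 values within the array (x axis), with 1 point per array coloured by group and a dotted line at 1.7. Control arrays of low SD have both the lowest Smpx signals of their group, at 7.70 to 8.50, and low means of the other genes, at 9.91 to 10.34.

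The mean of the 33 genes other than Smpx varied across single arrays, and the part of array spread in this was not tested. The mean of the 33 ran from 9.91 to 10.79 over the Control arrays, from 10.71 to 11.001 in scrambled, from 10.82 to 11.15 in siTNF, from 10.88 to 11.05 in siTNF-OMe and from 10.73 to 11.09 in siTNF-OMe-P. In every siRNA-dosed array at least 29 of the 33 genes lay above their Control mean, a count for which no share over all probe sets was taken. That Control mean includes the 4 narrow Control arrays. Their means of the 33 ran from 9.91 to 10.34, against 10.48 to 10.79 in the 5 other Control arrays. Control replicate 8 was the lowest Control array for 26 of the 33 genes and Control replicate 9 the highest for 23. Scrambled replicate 7 was the lowest of its group for 21 of the 33, and siTNF-OMe-P replicate 8 for 22. Control replicate 8 and siTNF-OMe-P replicate 8 were narrow arrays.

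Between siRNA groups 0 of the 34 genes passed in each of the 6 comparisons by limma, where 0% of all probe sets passed. Of the 204 tests of a member 4 had an unadjusted limma p under 0.05. Among all probe sets the share over scrambled was 1.08% with siTNF, 1.58% with siTNF-OMe and 2.9% with siTNF-OMe-P, 1.71% and 3.47% for siTNF-OMe and siTNF-OMe-P over siTNF, and 0.256% for siTNF-OMe-P over siTNF-OMe. The estimated difference was within 0.25 log2 of 0 in 201 tests, and the 95% interval lay within 0.5 log2 of 0 in 188. No member thus differed by a passing test between the unmodified siRNA and either modified form.

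The largest of these differences concerned Hspb7. In siTNF over scrambled it was 0.51 log2 (95% interval 0.15 to 0.87), and in siTNF-OMe over siTNF it was -0.40 (-0.77 to -0.02). Neither passed, with limma adjusted p-values of 1.00. The siTNF arrays with the highest Hspb7 were replicates 3 and 4, at 10.84 and 11.04, and the other 4 read 9.87 to 10.41. Replicate 3 was a narrow array and the highest of all arrays in the list of striated muscle genes described below, with a list mean of 9.09. In replicate 4 that mean was 7.53. The part of striated muscle in this difference was not tested. Itga8 differed by 0.21 in siTNF over scrambled (95% interval 0.03 to 0.38), which did not pass either. Smpx differed by -0.07 in siTNF, -0.11 in siTNF-OMe and 0.01 in siTNF-OMe-P over scrambled, and its sign changed with the processing in the first and the last of these.

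Colon length and the ratio of colon weight to length are labelled for each animal, as measures of disease. Labelled lengths ran from 7.2 to 8.1 in Control and from 5.2 to 7.1 in the siRNA-dosed animals. Lengths are labelled in mm and are given as labelled, but the labelled ratio was within 0.02 of the weight over 10 times the length in 33 of 36 animals, as it would be for lengths in cm. The labelled ratio ran from 2.03 to 2.47 in Control and from 2.13 to 3.10 in the other groups. Control and siRNA-dosed colons did not overlap in length, so the relation was examined by slopes within groups and by correlations that kept Control apart.

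Within groups 0 of the 34 genes passed for a slope on length or on ratio, and 0% of all probe sets passed for either. No member reached an unadjusted limma p under 0.05 for either measure, as 1.22% of all probe sets did for length and 4.99% for ratio. Des had a slope of -0.07 ± 0.14 log2 per labelled unit of length (95% interval -0.35 to 0.21) and Smpx one of -0.09 ± 0.24 (-0.58 to 0.40). For the ratio the slope was below 0 in 31 of the 34 genes, with a median of -0.17 log2 per mg/mm beside 0.07 for all probe sets and -0.20 for those with a mean of at least 10. Myocd had a slope of -0.42 ± 0.21 on the ratio (limma adjusted p = 0.557).

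Smpx and Des were also correlated with both measures, 8 relations in all. Over the 27 siRNA-dosed arrays Pearson r lay between -0.08 and 0.09 for each gene and measure (permutation adjusted p of 0.873 to 0.999). Spearman rho there ran from -0.03 to 0.25 (permutation adjusted p of 0.563 to 0.973). Within hybridization batch 1 r ran from -0.36 for Des with the ratio to 0.18 for Smpx with the ratio, and within batch 2 from -0.04 to 0.20. Without the 2 arrays farthest from the median of the measure r lay between -0.06 and 0.18.

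Among the 9 Control arrays Smpx and the labelled ratio had r = -0.669 (exact permutation p = 0.0278, adjusted p = 0.223) and rho = -0.812 (exact permutation p = 0.0112, adjusted p = 0.0898). Without the 2 arrays farthest from the median ratio r was -0.724. With length Smpx had r = -0.145 there and Des r = -0.117 (exact permutation adjusted p = 0.873), and without the 2 arrays farthest from the median length these became 0.353 and 0.554, so their sign rests on those arrays. Des had rho = -0.736 with the ratio there (exact permutation p = 0.0285, adjusted p = 0.114) and r = -0.428 (exact permutation p = 0.229, adjusted p = 0.873). None of the 8 relations passed after adjustment. The 4 narrow Control arrays had ratios of 2.18 to 2.47 and the 5 others 2.03 to 2.19, and the part of array spread in this relation was not tested. Hybridization batches held 4 and 5 Control arrays, too few for a value within batch.

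**Figure D5:**
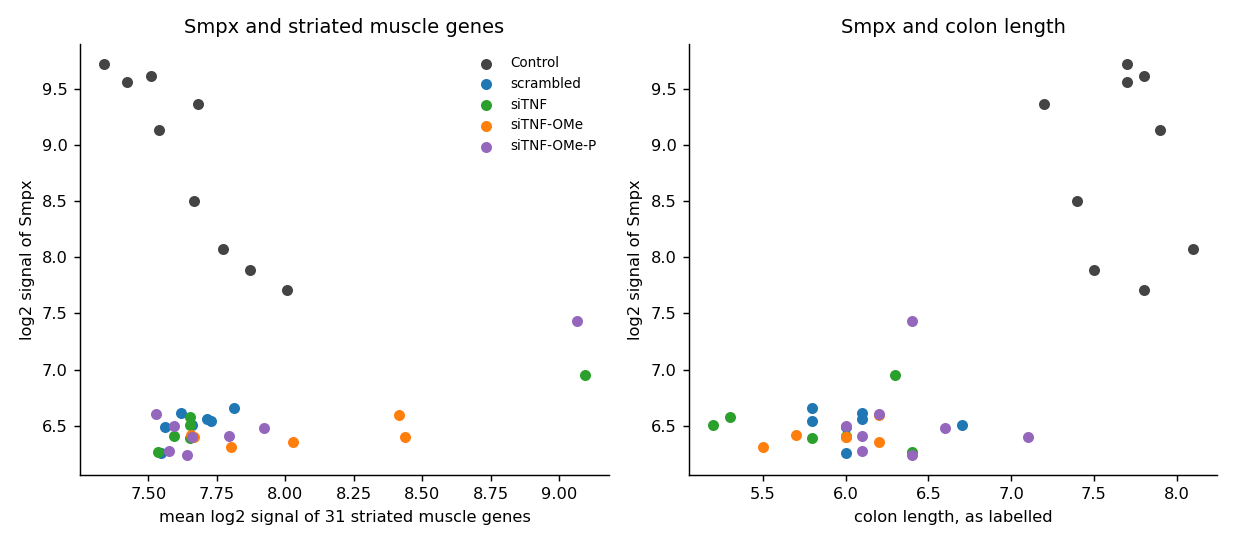
Log2 signal of Smpx (y axis) against the mean log2 signal of 31 striated muscle genes (left) and against colon length as labelled (right), with 1 point per array coloured by group. The Control arrays stand apart in length, at 7.2 to 8.1, and siTNF-OMe-P replicate 1 and siTNF replicate 3, which are highest in striated muscle genes at 9.06 and 9.09, have the highest Smpx of the siRNA-dosed arrays at 7.43 and 6.96.

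Since Smpx is best known from striated muscle, a list of 31 striated muscle genes was set beside it. Of these 31 genes 1 was higher than Control in scrambled, 2 in siTNF, 4 in siTNF-OMe and 3 in siTNF-OMe-P, and none was lower in any of the 4 comparisons. Counts this small are near the shares of all probe sets given above for each comparison, which were 7.27% to 9.35% higher and 4.45% to 6.58% lower. Myom1, which encodes a protein of the sarcomere's M-band, was higher by 0.50 to 0.75 log2, Ckm, muscle creatine kinase, by 0.70 in siTNF-OMe and 0.68 in siTNF-OMe-P, and Ankrd1, a stretch-responsive ankyrin repeat protein, by 1.00 in siTNF. The mean of the list ran from 7.34 to 8.01 in Control, from 7.54 to 7.81 in scrambled, from 7.53 to 9.09 in siTNF, from 7.66 to 8.44 in siTNF-OMe and from 7.53 to 9.06 in siTNF-OMe-P. The median difference of the list was -0.02 in scrambled and 0.06, 0.09 and 0.13 in the other groups, and no gene of it passed as lower alongside Smpx. Without the 2 arrays highest in this list Smpx differed from Control by -2.31, -2.49, -2.41 and -2.38, and Synm in siTNF was the 1 member whose call was lost.

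Other genes of the contractile pathway, 62 measured of 66 listed, mostly went with the 33. Of the 62 genes 35 were higher in scrambled, 39 in siTNF, 40 in siTNF-OMe and 44 in siTNF-OMe-P, with 0, 0, 0 and 1 lower. Beside these, 7.27%, 9.09%, 9.01% and 9.35% of all probe sets were higher and 4.45%, 4.71%, 5.81% and 6.58% lower. Among probe sets with a mean of at least 10, 18.5% to 21.1% were higher. The medians of the 62 genes were 0.34, 0.41, 0.42 and 0.39 log2. Itga5, the fibronectin-binding integrin chain, was higher by 1.31 ± 0.16 in scrambled (limma adjusted p = 4.26e-07) and by 1.33 to 1.57 in the TNF siRNA groups. Zyx, the adhesion protein zyxin, was higher by 0.54 to 0.72. Mrtfb, a myocardin-related coactivator, was the 1 gene that was lower, by 0.24 ± 0.08 in siTNF-OMe-P.

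Some markers of the other cells of the muscle coat and the wall also differed. They are given beside the members because the tissue was not sorted. As background for the counts below, 7.27% to 9.35% of all probe sets were higher and 4.45% to 6.58% lower. Among probe sets with a mean of at least 10, 18.5% to 21.1% were higher. Of 8 markers of interstitial cells 2 were higher and 1 lower in each comparison, counts too small to set apart from these shares. Ano1, the chloride channel of pacemaker cells and also of epithelia, fell by 1.24 to 1.45 log2. Pdgfra, which is also counted in the fibroblast list, was higher by 0.77 to 0.96, and Kcnn3 by 0.50 to 0.67. The interstitial list mean ran from 9.29 to 9.65 in Control and from 9.25 to 9.61 in the siRNA-dosed arrays. Of 13 markers of enteric neurons and glia 8, 8, 9 and 10 were higher, among them the synaptic gene Snap25 by 0.51 and the nitric oxide synthase Nos1 by 0.42 in scrambled, the glial filament Gfap by 0.99 and 1.07 in siTNF and siTNF-OMe, the receptor Ret by 0.67 in siTNF-OMe and the neuropeptide Vip by 1.10 in siTNF-OMe-P. The enteric list mean was 8.13 to 8.51 in Control and 8.69 to 9.27 in scrambled.

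Stromal and immune markers differed from Control as well. Of 10 fibroblast markers 4, 4, 8 and 7 were higher, of 10 pericyte and vascular markers 6, 7, 6 and 6, and of 8 macrophage markers 8, 8, 8 and 7. Of all probe sets 7.27% to 9.35% were higher, and of those with a mean of at least 10 the share was 18.5% to 21.1%. Cd68, a lysosomal protein of macrophages, was higher by 1.87 ± 0.12 in scrambled and 2.18 in siTNF-OMe, and the lysozyme Lyz2 by 1.29 to 1.53. The matrix genes Fn1 and Dcn were higher by 0.69 in scrambled and by 0.85 in siTNF-OMe. Kcnj8, a potassium channel of pericytes, was higher by 1.13 to 1.68 and the endothelial gene Pecam1 by 0.67 to 0.83. The macrophage list mean was 8.69 to 9.46 in Control and 9.96 to 10.62 in scrambled, and the vascular one 8.55 to 8.98 and 9.07 to 9.59. Pericytes and myofibroblasts share actin and transgelin with smooth muscle, and the part of these cells in the members' rise was not tested.

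Of 12 epithelial markers 3 were higher in scrambled and siTNF, 2 in siTNF-OMe and 1 in siTNF-OMe-P, beside 18.5% to 21.1% of all probe sets with a mean of at least 10, the level of these markers. Slc26a3, a chloride transporter of surface epithelium, fell by 0.65 in siTNF-OMe and by 0.70 in siTNF-OMe-P, whereas the mucin Muc2 was higher by 0.47 and the keratin Krt20 by 0.40 in scrambled. The epithelial list mean ran from 12.28 to 12.76 in Control and from 12.35 to 12.86 in the siRNA-dosed arrays. Of 10 markers of squamous epithelium, which lines the anal canal, 0 were higher in scrambled and siTNF, 8 in siTNF-OMe and 5 in siTNF-OMe-P. Among them were the keratins Krt5 (2.70 and 2.67) and Krt13 (2.43 and 2.00). Of all probe sets 7.27% to 9.35% were higher. The squamous list mean reached 8.96 in siTNF replicate 3, 10.45 in siTNF-OMe replicate 3 and 11.06 in siTNF-OMe-P replicate 1, against 7.05 to 7.58 in Control. The arrays highest in striated muscle genes, which had the highest siRNA-dosed Smpx, were thus also high in squamous genes. Other arrays high in squamous genes did not have high Smpx. In siTNF-OMe-P replicates 2 and 5 the squamous list means were 10.64 and 10.18 and Smpx read 6.48 and 6.24. In siTNF-OMe replicates 3 and 5 the squamous list means were 10.45 and 10.15 and Smpx read 6.40 and 6.60. Those arrays were also the next highest in striated muscle genes, with list means of 8.44 and 8.42. Among Control arrays, replicates 4 and 8 were highest in striated muscle genes, at 8.01 and 7.87, and had the lowest Smpx, 7.70 and 7.88. The part of these tissues in the members' values was not tested.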

How the data were processed

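The deposited values are log2 expression summaries per probe set from 36 Affymetrix arrays. Partek and RMA (a method that corrects background, normalizes by quantiles and summarises probes) are named per the submitters' processing notes, without versions. The sources used here do not give whether the authors had removed batch effects from the deposited log2 values. Array medians and SDs that differ show that the values are not identically distributed. Per the labels' protocols, 25 ng of total RNA was amplified as whole transcriptome and biotin-labelled. The number of arrays, and not a count depth, limits the precision.

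Symbols came from the platform annotation, updated by gene ID through RefSeq (GRCm38.p6). Of 28853 probe sets 21797 had 1 symbol, 1613 several and 5443 none listed, and genes were named only from the first kind. A linear model with terms for the 5 groups, the 3 amplification batches and the 2 hybridization batches left 28 residual degrees of freedom (limma 3.58.1 in R 4.3.3, empirical Bayes with mean-variance trend). It gave two-sided p-values, adjusted by Benjamini-Hochberg over all probe sets in each of the 10 comparisons and 2 slopes, with a threshold of 0.05. Errors written as ± are standard errors of the model. Correlations used permutations (SciPy 1.17.1), exact for the 9 Control arrays and 100000 otherwise. The code was tested on simulated data.

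All 34 members were named, each by the single-gene probe set of highest mean. Of every other list up to 2 risen and 2 fallen called genes of smallest p were named per comparison, with the 5 probe sets most like Smpx. The members, lists and tests were chosen with earlier results of these data known. Alternatives were no batch terms, a replicate block, fits of only the groups compared, each batch alone, quantile normalization, median centring, no trend, array weights, the array SD as covariate, no dim probe sets, all probe sets of a gene, and leaving out the narrow arrays or each array in turn. Leaving out the 2 arrays highest in striated muscle genes was added after seeing the data.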

Additional observations from a re-analysis of the deposited data

Results flagged for a closer look

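Single arrays stood far from the rest of their group, by Dixon's criterion at 95%, in 18 of 170 gene and group pairs, where chance gives about 1 in 20, or 8.5. Of these, 9 were low values of siTNF-OMe-P replicate 8, one of the narrow arrays. There Lmod1 read 8.87 (the other 7 arrays 9.40 to 9.74), Smtn 10.28, Myh11 12.32 (others 12.55 to 12.72) and Synpo2 10.25. Pgm5 read 10.67 (others 11.24 to 11.46), Pdlim3 10.96, Pdlim7 10.91, Dmd 7.90 and Cav1 10.43 (others 10.98 to 11.34) in that array. Control replicate 8, another narrow array, was low in Pdlim3 at 10.04 (others 10.70 to 11.26) and Pdlim7 at 9.61 (others 10.31 to 10.96).

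Of the remaining 7 values, 2 concerned Smpx. It was high in siTNF-OMe-P replicate 1 at 7.43, where the other 7 arrays read 6.24 to 6.60, and low in scrambled replicate 2 at 6.25, where the others read 6.49 to 6.66. Scrambled replicate 2 was also low in Itga8 at 7.87 (others 8.28 to 8.42). Scrambled replicate 4 was low in Myl9 at 12.99, scrambled replicate 7 in Hspb6 at 10.38, and siTNF-OMe replicate 6 in Tpm1 at 12.23. Scrambled replicate 6 was high in Chrm3 at 7.38 (others 7.11 to 7.23).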

How the results depend on the processing

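Smpx was lower than Control in all 4 comparisons under each alternative that gave it a value, with adjusted p of at most 0.0348; leaving out 11541 dim probe sets removed it. The count of members that passed against Control (28, 29, 30 and 30 for scrambled, siTNF, siTNF-OMe and siTNF-OMe-P) fell most in smaller fits. With only the groups compared it was 17 in scrambled and 12 in siTNF, with 1 of them lower in each. There 4.05% and 3.12% of all probe sets were higher and 1.95% and 1.46% lower. Within hybridization batch 1 it was 16, 14 and 19 in the first 3 groups, and within batch 2 it was 12, 13 and 19. Within amplification batch 1 it was 3, 10 and 10 (1.36%, 2.15% and 2.93% of all probe sets higher), and within batch 3 it was 1 in each of the 4 groups (0.114% to 0.454%). These fits hold fewer arrays, and batch 1 holds 1 scrambled and 1 siTNF-OMe array, each assumed to vary like the other groups. Leaving out 1 array gave 27 to 28, 26 to 29, 28 to 30 and 29 to 30. No share over all probe sets was taken for these counts, nor for the count that follows. For the colon length slope 1 member passed within amplification batch 1.

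The small Smpx differences over scrambled turned sign. For siTNF (-0.07) the value was 0.000618 without batch terms, 0.0214 with only the groups compared, 0.00570 with the replicate block, 0.18 within hybridization batch 1, and 0.10 and 0.13 within amplification batches 1 and 2, with -0.20 to 0.00502 on leaving out 1 array. For siTNF-OMe-P (0.01) it was -0.000767 with only the groups compared, -0.072 without the 2 arrays highest in striated muscle genes, -0.17 within hybridization batch 2, and -0.047 and -0.216 within amplification batches 2 and 3, with -0.073 to 0.064 on leaving out 1 array. With array weights Smpx differed in its change from 1 member in siTNF and 25 in siTNF-OMe-P over scrambled. No share over all probe sets was taken for these counts, so they do not set the members apart from other genes. The cause was not tested.

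With the replicate block in place of batch terms 28, 29, 29 and 30 members passed against Control. Beside these, 6.22%, 7.8%, 7.81% and 9.9% of all probe sets were higher and 5.05%, 4.19%, 5.95% and 6.37% lower. Over 64 same-numbered pairs of arrays the median correlation of deviations was 0.124, with 32 pairs over 0.1. Of the 36 arrays 5 correlated best with their own number. No pairing by number was thus seen, though a weak pairing could go unseen in such a check.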
